A study of Mus musculus with 2 samples.

Results

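Immunoglobulin variable genes encode the part of an antibody that meets antigen, and the choice of variable gene was read here in single B cells of mouse lung. The gene set held every row of the count tables whose symbol starts with Ighv (heavy chain), Igkv (kappa light chain) or Iglv (lambda light chain) followed by a digit, and whose unique molecular identifiers (UMIs, counts of captured transcripts) came to at least 20 over both libraries. Of 31053 rows, 348 were variable genes and 36 met the rule. These were 12 of 185 Ighv rows, 22 of 160 Igkv rows and 2 of 3 Iglv rows. Of the remaining variable rows, 160 held 1 to 19 UMIs and 152 held none. All 36 were annotated as functional variable genes. In all, 130 rows annotated as pseudogenes held 57 UMIs, against 3394 UMIs in 216 rows annotated as functional.

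The study asked how diesel exhaust particles (DEP) act on monocyte recruitment and allergic airway inflammation. CD45+ leukocytes were sorted by flow cytometry from perfused, enzyme-digested lungs and profiled with the 10x Genomics 3′ kit v3.1. The control library came from mice with no DEP exposure, labelled Ccr2-/- (KO) and CD45.1+. The exposed library came from mice kept in 500 µg/m³ DEP for 1 hour a day on 5 days a week over 2 weeks, labelled Ccr2-/- (KO) and CD45.3+. Both labels name the Ccr2 knockout while the design text also names wild-type C57BL/6J mice, and how many animals were pooled is not stated. With 1 library per group there is no spread between animals and no test was made. Exposure and any other difference between the libraries cannot be told apart, and every interval below covers counting error alone at the 95% level.

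Each B cell joins 1 of many variable genes to short joining segments, so that a cell and its descendants carry 1 heavy and usually 1 light chain. Kappa and lambda are alternative light chains, and in the mouse lambda is the minor one and has few variable genes. Plasma cells, the antibody-secreting end stage, hold far more immunoglobulin RNA than resting B cells. B-1 cells are a B cell lineage known for natural antibodies, among them receptors for phosphatidylcholine built from Ighv11-2 or Ighv12-3.

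The ends of 8 variable genes on which the results turn are shown, as 90 coding bases up to the annotated end of the variable segment. They come from the GENCODE M21 transcripts (mm10 build) and all lie in the last exon of the gene. Capitals mark the last cysteine codon in frame, which opens the third complementarity-determining region, the stretch that meets the joining segments. Iglv1 (chr16:19085017-19085106, minus strand) and Iglv3 (chr16:19241207-19241296, minus) are the lambda members. Igkv12-44 (chr6:69814631-69814720, minus) and Ighv1-26 (chr12:114788372-114788461, minus) were the most used kappa and heavy genes. Ighv1-55 (chr12:115208095-115208184, minus) with Igkv12-89 (chr6:68834846-68834935, minus), and Ighv11-2 (chr12:114048241-114048330, minus) with Igkv14-126 (chr6:67896553-67896642, plus), were found together in plasma-like cells.
Iglv1: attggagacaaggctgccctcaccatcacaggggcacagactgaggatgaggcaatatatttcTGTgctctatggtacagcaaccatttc
Iglv3: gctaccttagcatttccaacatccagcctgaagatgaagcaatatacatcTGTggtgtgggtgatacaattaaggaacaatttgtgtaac
Igkv12-44: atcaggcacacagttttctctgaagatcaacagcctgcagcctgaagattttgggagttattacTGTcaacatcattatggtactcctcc
Ighv1-26: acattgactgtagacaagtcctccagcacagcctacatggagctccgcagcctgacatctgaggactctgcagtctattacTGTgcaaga
Ighv1-55: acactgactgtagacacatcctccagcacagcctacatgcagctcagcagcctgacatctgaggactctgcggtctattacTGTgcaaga
Igkv12-89: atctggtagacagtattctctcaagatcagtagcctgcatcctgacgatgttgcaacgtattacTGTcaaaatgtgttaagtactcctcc
Ighv11-2: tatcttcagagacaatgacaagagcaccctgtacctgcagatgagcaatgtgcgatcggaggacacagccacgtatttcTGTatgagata
Igkv14-126: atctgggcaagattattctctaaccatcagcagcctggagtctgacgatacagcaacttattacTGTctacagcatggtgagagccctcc

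B cells were barcodes with at least 3 UMIs summed over Cd79a, Cd79b and Ms4a1, 2032 of 8940 kept barcodes in the control and 1802 of 8690 in the exposed library. Their median depth was 3363.5 and 3659 UMIs. The gate matched other B cell markers: Ebf1 was seen in 98.3% and 98.6% of these cells and Ighd, the constant gene of naive B cells, in 88.9% and 92.0%. RNA of other cell types was also present, with at least 1 Cd3 UMI in 5.76% and 3.44% of B cells and at least 3 S100a8 and S100a9 UMIs in 6.64% and 7.16%. The files shared 23 barcodes, of which 12 were a B cell in at least 1 library.

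A heavy variable gene was read in more B cells of the exposed library, while the light chain was read about equally often. A cell was assigned the variable gene with most UMIs in its chain, with all 348 rows competing and ties left out. A heavy gene was assigned in 223 control B cells (11% [9.65 to 12.4]) and 288 exposed B cells (16.0% [14.3 to 17.8]), a ratio of 1.46 [1.22 to 1.74]. A light gene was assigned in 375 (18.5% [16.8 to 20.2]) and 322 (17.9% [16.1 to 19.7]), a ratio of 0.968 [0.832 to 1.13]. The calls were thin. A single UMI carried 86.5% and 88.2% of heavy and 86.9% and 87.9% of light assignments. After thinning each cell to 1000 UMIs, possible in 2024 control and 1800 exposed cells, heavy genes were assigned in 3.75% [2.97 to 4.68] and 5.22% [4.24 to 6.35] and light genes in 5.98% and 5.89%. The thinned heavy log2 ratio was 0.48 [0.02 to 0.93], beside 0.54 [0.29 to 0.80] with all UMIs.

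The heavy difference was also seen relative to heavy constant transcripts. In B cells other than plasma-like cells (defined below), heavy variable UMIs per 1000 heavy constant UMIs were 5.25 [4.62 to 5.95] for the control and 8.40 [7.51 to 9.37] for the exposed library. The same measure was 6.47 and 6.43 for kappa and 3.55 and 3.70 for lambda, with overlapping intervals. By these counts about as many variable UMIs per constant UMI were read in both libraries for the light chains and more in the exposed one for the heavy chain. Outside B cells, T cells with a heavy variable UMI were 1 of 1343 and 2 of 1379, at medians of 5537 and 6018 UMIs, and neutrophils with one were 15 of 2310 and 14 of 2406. Igkc, the kappa constant gene, was seen in 26.7% and 10.2% of T cells. The part of RNA from outside the cell in the heavy difference was not tested.

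**Figure D1:**
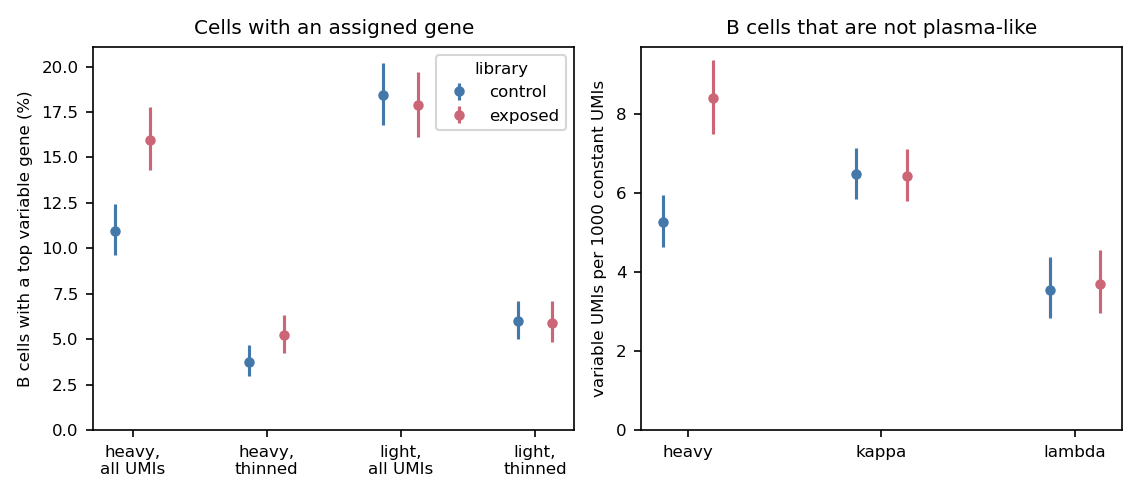
Left, percent of B cells with an assigned heavy or light variable gene in each library, with all UMIs and after thinning each cell to 1000 UMIs. Right, variable UMIs per 1000 constant UMIs of the same chain in B cells that are not plasma-like. Bars are exact 95% intervals from counts of 1 library each, and the heavy values are 11% and 16.0% on the left and 5.25 and 8.40 on the right.

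A heavy member was the top heavy gene in 69 control (3.40% [2.65 to 4.28]) and 126 exposed B cells (6.99% [5.86 to 8.27]), a ratio of 2.06 [1.52 to 2.80]. For heavy genes outside the member set the numbers were 154 and 162, a ratio of 1.19 [0.945 to 1.49]. The member set was filtered on UMIs summed over both libraries, and several heavy genes pass mainly through the exposed one (Ighv9-3 had 5 and 22 UMIs, Ighv5-4 7 and 16, Ighv3-6 11 and 90). A higher ratio in members than in other genes can follow from that filter, and nothing is read from it. Of the 12 heavy members, 10 were used in a larger share of exposed B cells, beside 61.4% of the 88 heavy genes that were top in at least 1 B cell. The same filter bears on this count.

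Ighv1-26, a member of the large Ighv1 (J558) family, was the top heavy gene in 9 control and 16 exposed B cells, 0.443% [0.203 to 0.839] and 0.888% [0.508 to 1.44]. Ighv3-6 was top in 6 and 16 cells, a ratio of 3.01 [1.12 to 9.38]. Ighv9-3 was top in 3 and 16 cells, a ratio of 6.01 [1.72 to 32.2]. These intervals exclude 1 for Ighv3-6 and Ighv9-3 and include it for Ighv1-26, at a ratio of 2.00 [0.834 to 5.15]. Ighv3-6 and Ighv9-3 passed the UMI filter mainly through the exposed library, and the intervals were not adjusted for the number of genes. Nothing is therefore read from their excluding 1. The log2 ratio of Ighv3-6 was 1.59, and with doublets kept it was 1.09 [-0.10 to 2.37], over heavy-assigned cells 1.05 [-0.38 to 2.69], after thinning 1.17 [-1.63 to 4.64] and in cells with no T cell or neutrophil marker UMI 0.63 [-1.35 to 2.68]. That of Ighv9-3 was 2.59, and 2.68 [-0.48 to 8.25] in cells with no such marker. Between 4 and 7 control cells and 9 and 11 exposed cells had Ighv1-18, Ighv1-9, Ighv6-3, Ighv5-4, Ighv1-64 or Ighv8-8 on top, and all 6 ratios lay above 1 with intervals that include it. Ighv14-2 was top in 4 and 7 cells. The exceptions to the direction were Ighv1-55, with 7 and 6 cells, and Ighv1-50, with 8 and 3. Each heavy share rests on 3 to 16 cells, so the order of the heavy members is loose. No neighbours in the heavy order lay apart beyond their intervals in either library.

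**Figure D2:**
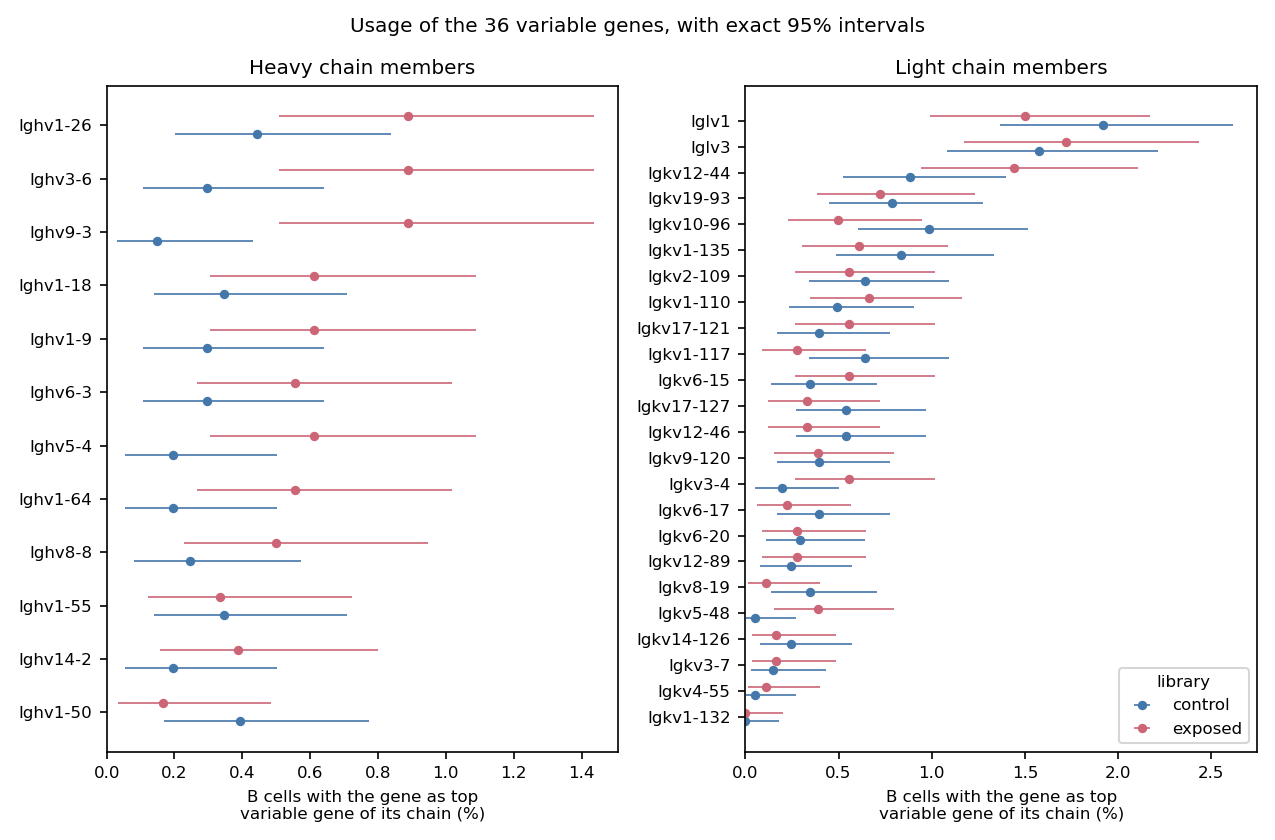
Percent of B cells in which each of the 36 variable genes was the top gene of its chain, heavy on the left and light on the right, in the control and the exposed library. Points are shares and bars exact 95% intervals. Among heavy genes 10 of 12 exposed points lie to the right of the control points. Iglv1 and Iglv3 have the highest light shares in both libraries, which are not shares of lambda cells by constant genes.

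The lambda genes Iglv1 and Iglv3 were the light genes most often on top in both libraries. This is not usage by lambda cells alone. Few Iglv3 cells and only part of the Iglv1 cells had more lambda than kappa constant UMIs, as given below. Iglv1 was top in 39 control and 27 exposed B cells (1.92% [1.37 to 2.61] and 1.50% [0.990 to 2.17]) and Iglv3 in 32 and 31 (1.57% [1.08 to 2.22] and 1.72% [1.17 to 2.43]). Igkv12-44 was top in 18 and 26 cells, 0.886% [0.526 to 1.40] and 1.44% [0.945 to 2.11]. Over the 24 light members Pearson's r between the usage shares was 0.85, and over the 22 kappa members 0.65. Over the 12 heavy members r was -0.13. Their shares rest on few cells, and the filter on UMIs summed over both libraries can itself lower r. Nothing is therefore read from the heavy value. These values describe genes that share their library and depth. Of the 23 light members on top in at least 1 cell, 10 were used in a larger share of exposed B cells, beside 46.5% of 86 light genes. Their median ratio was 0.940.

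Igkv10-96 was top in 20 control and 9 exposed B cells, a ratio of 0.507 [0.203 to 1.17]. Igkv1-117 was top in 13 and 5 cells, a ratio of 0.434 [0.121 to 1.30]. Igkv1-135 was top in 17 and 11, Igkv19-93 in 16 and 13, Igkv2-109 in 13 and 10, and Igkv1-110 in 10 and 12. Igkv17-121 (8 and 10 cells), Igkv6-15 (7 and 10) and Igkv12-46 (11 and 6, as for Igkv17-127) completed the 10 most used kappa genes, and none of these 10 had a ratio interval that excluded 1. Outside them, Igkv5-48 was top in 1 and 7 cells, a ratio of 7.89 [1.01 to 356], the only light member whose interval excluded 1. With ties divided the log2 interval was -0.21 to 6.42. A control plasma-like cell with 10 Igkv5-48 and 1598 Igkc UMIs is not counted, because its 43 Iglv1 UMIs put that gene on top. Igkv5-48 was chosen for mention because its 22 UMIs lay just inside the threshold, with Ighv6-3 and Ighv8-8 at 20. Just outside, at 18 UMIs each, were Igkv3-2, Igkv5-43, Ighv11-2 and Ighv1-81.

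The overlap of the repertoires, the sum over genes of the smaller of the library shares of assigned cells, was 0.680 for heavy and 0.725 for light genes, where 1 would be identical usage. Counting error alone lowers this value when most genes rest on a few cells. Ighv1 was the most used heavy family, with 120 control and 144 exposed cells over 53 functional genes, of which 6 were members. Ighv3 genes were top in 8 and 21 cells (ratio 2.96 [1.26 to 7.73]) and Ighv9 genes in 5 and 18 (4.06 [1.45 to 14.0]), each family counting 1 member that supplied most of its cells. Among kappa families Igkv4, the largest with 26 functional genes and 1 member, was top in 16 and 28 cells (1.97 [1.03 to 3.90]), and Igkv8 in 18 and 5 (0.313 [0.0909 to 0.875]). Igkv8-19 supplied 7 and 2 of the Igkv8 cells. It was also read outside B cells in the control library, in 3 T cells, 2 neutrophils and 6 other kept barcodes, while all 4 exposed UMIs lay in B cells. Family intervals were not adjusted for the number of families.

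Heavy gene usage was also read by position in the locus. Ighv genes were split into 3 parts of about equal gene number by their distance from the joining segments. From the nearest to the farthest part, exposed over control ratios of cells were 1.40 [1.00 to 1.97], 1.74 [1.29 to 2.35] and 1.21 [0.883 to 1.67], the last with an interval that includes 1. For kappa genes the ratios were 0.897, 1.32 and 0.899, with intervals that include 1. Kappa members were spread unevenly: 6 of 33 genes in the nearest part, 4 of 33 in the middle and 12 of 34 in the farthest, which reaches 3167 kb from Igkj1. The 38 kappa genes in the same orientation as the joining segments, which rearrange by deletion, were top in 147 and 116 cells. The 62 in the opposite orientation, which rearrange by inversion, were top in 147 and 142. The classes differ in gene number, so equal counts of cells are not equal use per gene.

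**Figure D3:**
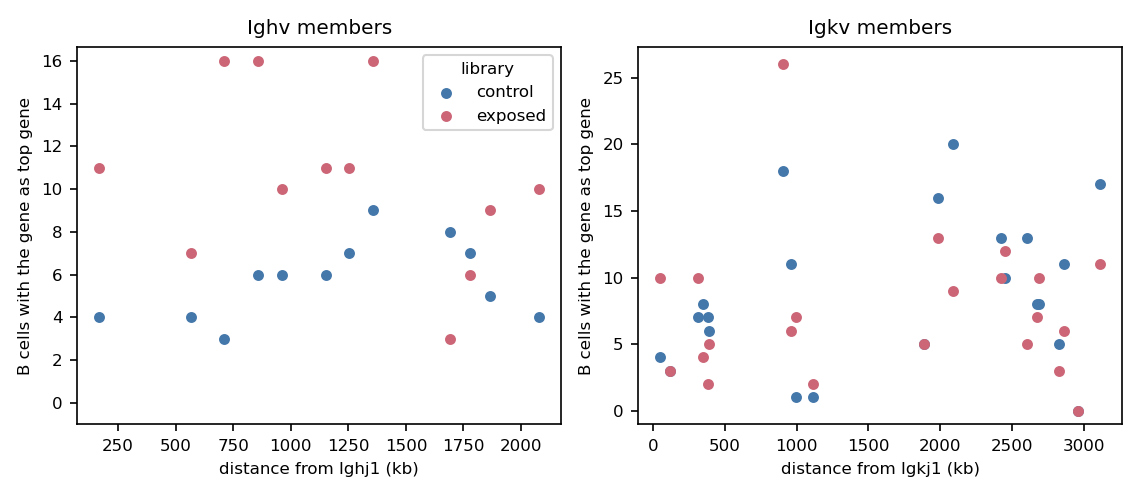
Number of B cells with each heavy (left) or kappa (right) member as top gene, against the distance in kb from the first joining segment, Ighj1 or Igkj1. Each gene has 1 point per library; the 3 heavy genes at 16 exposed cells are Ighv9-3, Ighv3-6 and Ighv1-26.

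Lambda variable genes differed among themselves in the constant gene they were read with. Lambda genes were on top in 75 of 375 light-assigned control cells (20% [16.1 to 24.4]) and 60 of 322 exposed cells (18.6% [14.5 to 23.3]), a ratio of 0.932 [0.652 to 1.33]. By the constant genes fewer cells were lambda: 11.5% of control and 11.8% of exposed B cells had more Iglc1, Iglc2 and Iglc3 than Igkc UMIs. Cells with Iglv3 on top resembled kappa cells, with more lambda than kappa constant UMIs in 4 of 32 control (12.5% [3.51 to 29.0]) and 2 of 31 exposed cells (6.45% [0.791 to 21.4]). Cells with any Igkv gene on top gave 7.14% [4.48 to 10.7] and 6.15% [3.56 to 9.80], so the Iglv3 intervals contain the kappa level. In contrast, 19 of 36 and 13 of 24 cells with Iglv1 on top had more lambda constant UMIs (52.8% [35.5 to 69.6] and 54.2% [32.8 to 74.4]). Iglv2, which missed the UMI threshold with 8 UMIs, was on top in 4 and 2 cells, all with more lambda than kappa constant UMIs. The classes by top variable gene and the shares after them leave out plasma-like cells. The 75 of 375, 60 of 322, 11.5% and 11.8% above include them.

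**Figure D4:**
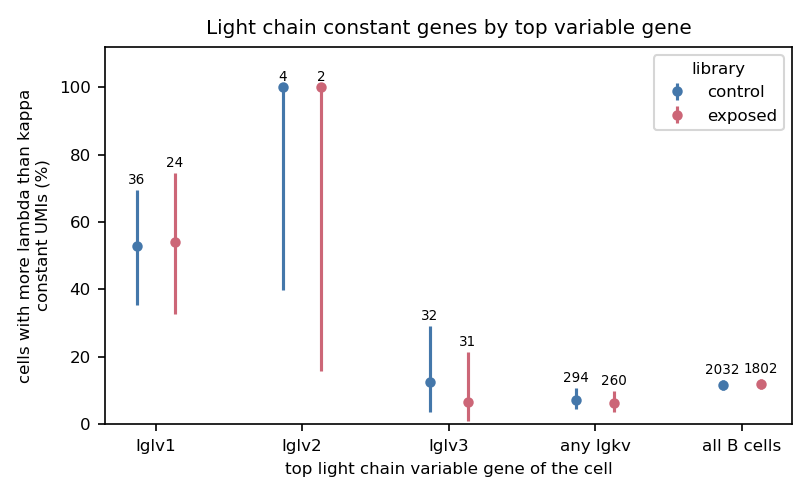
Percent of cells with more lambda (Iglc1, Iglc2 and Iglc3 together) than kappa (Igkc) constant UMIs, by the top light chain variable gene of the cell, with exact 95% intervals and the number of cells above each bar. Plasma-like cells are left out of the variable gene classes but not of the class of all B cells. Iglv1 stands at 52.8% and 54.2%, Iglv3 at 12.5% and 6.45%, close to the 7.14% and 6.15% of cells with an Igkv gene.

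The ends of Iglv1 and Iglv3 shown above differ at 66 of 90 positions when set side by side without gaps. The marked cysteine codon is followed by 24 bases in Iglv1 and 37 in Iglv3, so the ends are out of register. This count therefore does not measure how alike the genes are. Of the 60-base windows of each transcript, 83.4% in Iglv1 and 100% in Iglv3 were found in no other immunoglobulin variable transcript. The kappa constant UMIs in Iglv3 cells had medians of 25 and 33, beside 34 and 38 in cells with an Igkv gene on top. Whether these UMIs come from a rearranged lambda chain was not measured, since a 3′ library does not join a variable UMI to its constant region.

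A few plasma-like cells held a large part of the variable UMIs. Plasma-like was defined as at least 10 UMIs of Jchain, which encodes the joining chain of secreted IgM and IgA, and at least 5% of UMIs from immunoglobulin constant genes. The control library had 9 such cells and the exposed library 6. They held 37.1% and 54.7% of the variable UMIs of all B cells, and 50.2% and 66.5% of the UMIs of the members. Iglv1 had 211 and 653 UMIs in B cells, and 44 and 40 without plasma-like cells. A single exposed cell held 183 of the 191 Igkv3-7 UMIs and a single control cell 37 of 43 Igkv14-126 UMIs.

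In the control library, 2 IgA cells carried Ighv14-2 (18 and 6 UMIs) with Igkv4-55 (17 and 18), and 2 IgM cells carried Ighv1-55 (8 and 5) with Igkv12-89 (30 and 12). The same pair of variable genes was thus read in 2 plasma-like cells in both cases; the third complementarity-determining region was not read, so a shared origin was not measured. Other IgA cells carried Ighv1-64 (7) with Igkv8-19 (21), and Ighv2-5 (3) with Igkv6-17 (23). A further IgA cell carried Ighv1-78 (6) with Igkv1-117 (10) and 18 Iglv1 UMIs, so that Iglv1 was its top light gene. An IgG3 cell with 1411 Ighg3 UMIs carried Ighv1-54 (8) and Igkv5-48 (10).

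In the exposed library, 2 IgM cells carried Ighv1-55 (25 and 5) with Iglv1 (228 and 87). They were lambda cells by their constant genes, with 15275 and 7746 Iglc1 UMIs against 2 and 1 Igkc UMIs. An IgA cell carried Ighv3-6 (68), Igkv3-7 (183) and also 292 Iglv1 UMIs. Another carried Ighv1-26 (8) with Igkv1-135 (36). The last 2 IgA cells carried Ighv9-3 (4) with Igkv4-59 (3), and Ighv1-81 (6) with a single Igkv8-30 UMI. Ighv1-55 was therefore the top heavy gene of 2 IgM plasma-like cells in each library, with a kappa gene in the control and a lambda gene in the exposed cells.

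Iglv1 UMIs were also high in some plasma-like cells with a kappa constant gene. The exposed IgA cell with 292 Iglv1 UMIs had 23587 Igkc and 24 Iglc1 UMIs. A control IgA cell had 90 Iglv1 UMIs with 5376 Igkc and 19 Iglc1 UMIs, and the IgG3 cell had 43 with 1598 Igkc and no Iglc1 UMI. The other analysed plasma-like cells with mostly kappa constant UMIs had at most 18 Iglv1 UMIs, and some had none. Per 1000 lambda constant UMIs, control plasma-like cells, none of which was a lambda cell by its constant genes, had 248 [210 to 293] lambda variable UMIs, against 3.55 [2.84 to 4.38] in the other B cells. The control IgA cell with 90 and the IgG3 cell with 43 Iglv1 UMIs supplied most of the 179 lambda variable UMIs behind the control value. In the few cells named here Iglv1 was thus read without a matching amount of lambda constant RNA.

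**Figure D5:**
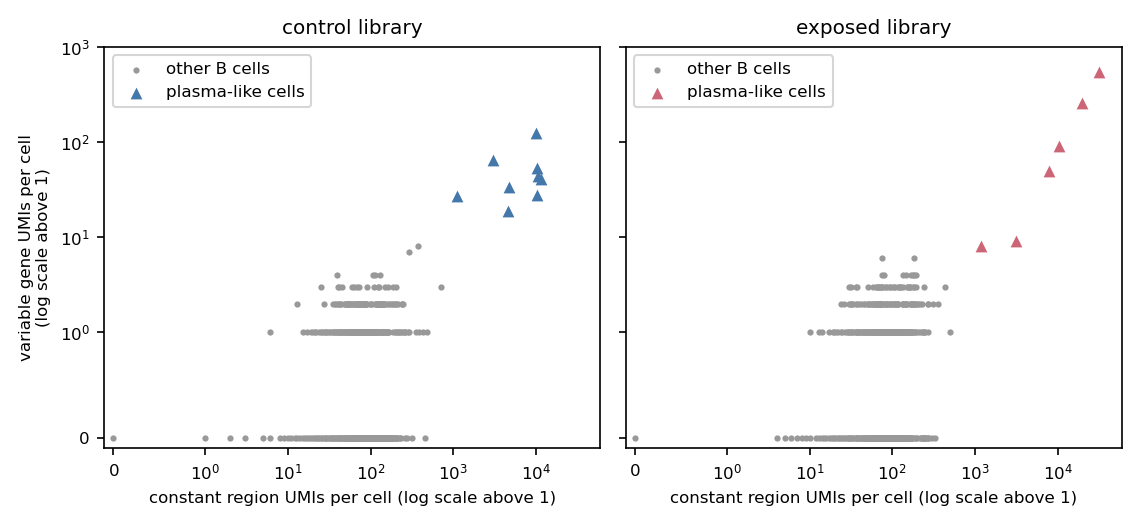
Variable gene UMIs against immunoglobulin constant UMIs per B cell in the control (left) and exposed (right) library, both axes logarithmic above 1. Triangles are the 9 control and 6 exposed plasma-like cells and grey points the other B cells. The highest exposed cell has 551 and the highest control cell 126 variable UMIs.

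Ighv11-2, of the phosphatidylcholine receptors, was found in cells with B-1 markers. It was the top heavy gene in 3 control and 2 exposed B cells. All 5 had at least 3 UMIs over the B-1 list (Cd5, Spn, Zbtb32, Bhlhe41, Cd9 and Plscr1), at most 1 Ighd UMI and no Fcer2a UMI, the gene of CD23. Among all B cells 5.66% of control and 3.83% of exposed cells had that many B-1 marker UMIs. The 5 cells were deep, at 5457 to 20273 UMIs, and among B cells with at least 5000 UMIs the share was 32.1% [26.9 to 37.5] and 22.2% [17.3 to 27.7]. All 5 cells had a Cd9 UMI, while most had no Cd5 UMI, and most had no Spn UMI. The plasma-like cell among them reached 3 with 1 UMI each of Spn, Cd9 and Plscr1.

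Of these 5 cells, 2 control cells also had Igkv14-126 on top, the light chain known to pair with Ighv11-2 in this receptor. One was an IgM plasma-like cell with 11 Ighv11-2, 37 Igkv14-126 and 2384 Ighm UMIs. Ighv12-3 was top in 4 cells, 3 of them with at least 3 B-1 marker UMIs, and its light chain partner Igkv4-91 in 2 exposed cells with none. Igkv14-126 was top in 5 control and 3 exposed cells, of which 5 in all had at least 3 B-1 marker UMIs. Ighv1-72, known from responses to nitrophenyl haptens together with Iglv1, was top in 2 and 1 cells. These numbers are too small to compare the libraries.

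Both chains were assigned in 114 B cells, which carried 106 distinct pairs of variable genes. Of these, 98 pairs were seen in 1 cell and 8 in 2 cells, and no pair in more. Plasma-like cells supplied both cells of 2 repeated pairs, Ighv1-55 with Igkv12-89 and Ighv1-55 with Iglv1. The pair of Ighv11-2 and Igkv14-126 and that of Ighv3-6 and Iglv1 each had 1 plasma-like cell of 2. The cells of Ighv1-18 with Igkv1-135 lay 1 in each library. In this list Ighv14-2 with Igkv4-55 is missing because Iglv1 was on top in 1 of those cells.

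Ighv1-64 was read in neutrophils as well as in B cells. Neutrophils, taken as cells with at least 50 S100a8 and S100a9 UMIs and none of the gate and Cd3 genes, had an Ighv1-64 UMI in 7 of 2310 control (0.303% [0.122 to 0.623]) and 4 of 2406 exposed cells (0.166% [0.0453 to 0.425]). B cells had one in 4 of 2032 (0.197%) and 10 of 1802 (0.555%), so the intervals overlap within each library. Ighv1-26, Ighv3-6 and Ighv9-3 had no UMI in neutrophils of either library, which allows a share of up to 0.130% and 0.125% by the limit of 3 counts. The pseudogene Ighv8-10, 11.3 kb from Ighv1-64 on chromosome 12, had a UMI in 3 and 6 neutrophils and in none of the B cells, which allows a share of up to 0.148% and 0.166% there by the same limit. Neutrophils had 2727.5 and 2962 UMIs at the median, fewer than B cells. The source of these UMIs was not tested.

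The members were set beside all genes of B cells in summed counts. Of the 29 members with at least 20 UMIs in B cells, 10 had at least 2-fold higher CPM (counts per 1e+06 UMIs) in the exposed library, beside 0.659% of 10923 genes. Members were 2-fold lower in 7 of 29 cases, beside 7.92% of genes. Single plasma-like cells enter both counts. Without plasma-like cells 20 members still had that many UMIs. Of these, 6 were 2-fold higher, beside 0.57% of 10868 genes, and 1 was 2-fold lower, Igkv1-117, beside 8% of genes. The 6 were Ighv9-3, Ighv3-6, Ighv5-4, Ighv1-9, Ighv1-26 and Igkv6-15, which had between 16 and 19 (14 for Ighv1-9) UMIs in the exposed library. The median tested gene had 296 UMIs and the median tested member 26, so that counting error alone moves the members more. Since members had to pass a UMI filter, often through 1 library, nothing is read from these shares. The median log2 ratio of all genes was -0.16 in both settings, and that of the tested members 0.23 with and 0.38 without plasma-like cells.

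Genes around the variable genes were read from a list. Of its 40 genes of immunoglobulin constant regions, B cell receptor signalling and plasma cell differentiation, 32 had at least 20 UMIs in B cells. In the exposed library 1 of these was 2-fold higher, beside 0.659% of 10923 genes. A further 3 were 2-fold lower, beside 7.92% of genes. Iglc1, a lambda constant gene, was 6.09-fold [5.92 to 6.28] higher, and 1.10-fold without plasma-like cells. Of its 27861 exposed UMIs, single plasma-like cells held 15275 and 7746. The interval does not cover such spread between cells. Mzb1, a chaperone of antibody assembly, was 1.34-fold [1.28 to 1.41] higher. Ighg2b had a ratio of 1.14 [0.896 to 1.45], and of 0.245 without plasma-like cells. Prdm1, the plasma cell regulator BLIMP1, was at 15.1 and 6.53 CPM, a ratio of 0.433 [0.305 to 0.606]. Ighg3 had 1535 and 28 UMIs, a ratio of 0.0206, and 0.256 without plasma-like cells. Ighg2c had 26 UMIs and none, a ratio of 0 [0 to 0.172]. Set against 3 UMIs in the exposed library it was 7.66-fold lower.

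Without plasma-like cells no gene of the list was 2-fold higher, beside 0.57% of 10868 genes. Beside 8% of genes, 6 of the 32 were 2-fold lower: Prdm1, Ighg2c, Ighg3, Ighg2b, Igha and Jchain. Few cells carry such genes: Jchain was seen in 52 control and 14 exposed B cells, plasma-like cells included. Outside B cells, Igkc was also seen in a smaller share of exposed neutrophils (22.0% and 7.11%) and T cells (26.7% and 10.2%). The part of RNA from outside the cell in these 6 genes was not tested. Rag1, of the recombinase that joins variable genes, had 1 and 2 UMIs and Rag2 had none, and Dntt, the enzyme that adds bases at the junctions, had 12 and 0. Ighm was at 5503 and 4960 CPM and Igkc at 12162 and 12325 CPM, ratios of 0.901 and 1.01. The lower Ighm beside the higher heavy variable counts is the same contrast as the variable to constant ratio above.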

How the data were processed

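Gene counts (UMIs per gene and barcode) were deposited by the authors as 1 matrix per library, already limited to called cells. They were made with Cell Ranger against mm10, version 3.1.3 per the submitters' processing notes and 3.1.0 per the file headers. The 10x 3′ kit reads the constant end of an antibody transcript, so few reads reach the variable segment. Reads shared by near-identical variable genes can be lost or split, and how they were handled is not given in the sources used here. A median of 80.5% of 60-base windows was unique in Ighv members and 78.1% in Igkv members.

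Totals were 62047730 UMIs in 10312 control and 67030914 in 10000 exposed barcodes. Barcodes needed 500 UMIs and 200 genes or more, with mitochondrial UMIs no higher than 10%. Doublets were scored by simulated doublets (2 per cell, 40 neighbours, 30 components of 2000 genes) and removed at 0.8% per 1000 cells, which took 393 and 250 barcodes of the B cell gate. Among those, 39.7% and 34.0% had a Cd3 UMI. Shares carry exact Clopper-Pearson and ratios exact conditional binomial intervals at 95%. They cover counting error only. Counts of 0 were set against a floor of 3 counts. Python 3.11.15, numpy 2.4.6, scipy 1.17.1 and scikit-learn 1.9.0 were used, and the calls were checked on simulated data.

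Members, lists and thresholds were chosen with earlier results of these data known. The named genes were the 10 most used heavy and 10 most used kappa genes, the lambda members, the highest and lowest ratios among genes top in at least 20 cells, 5 genes known from B-1 and hapten receptors, the most frequent pairs, genes beside the 20 UMI threshold, the top genes of plasma-like cells and those with most UMIs in T cells, and the extremes of the gene list. Only 2 heavy genes reached 20 cells. The rule does not say whether all variable genes or only members compete for a cell, and all rows were used after both results had been seen. T cells had at least 3 Cd3d, Cd3e and Cd3g UMIs and none of the gate genes. The plasma-like, T cell, neutrophil and B-1 marker cut-offs, the locus parts and the window length were also set after values were seen. Some genes of the lists are not reported here.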

Additional observations from a re-analysis of the deposited data

Results flagged for a closer look

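Igkv1-132 owes its place among the 36 genes to a single barcode outside the B cells described above. All its 32 UMIs lay in 1 control barcode that met the B cell gate but was removed as a doublet, a plasma-like IgA barcode with 3535 Igha and 6877 Igkc UMIs. The same barcode held 15 UMIs of Ighv1-50, which had 16 UMIs in barcodes outside the analysed B cells and 9 and 4 within them. It also held 13 Igkv4-80 and 29 Iglv1 UMIs, that is, more than 1 light chain gene. Another plasma-like barcode removed as a doublet held 12 Ighv1-58 and 9 Igkv6-15 UMIs. Whether these barcodes held 2 cells was not tested.

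Variable UMIs in T cells were few. Igkv8-19 had 3 UMIs in control T cells, of 6 variable UMIs in all, and in exposed T cells Igkv12-89, Ighv8-10 and Ighv1-82 had 1 each. The control library held an Igkv8-19 plasma-like cell with 21 UMIs of the gene.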

How the results depend on the processing

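Values are log2 ratios of exposed over control, or overlaps. The heavy-assigned ratio was 0.54 and stayed above 0 under all alternatives run, and moved beyond its counting interval to 1.01 when members competed alone. With at least 2 UMIs it was 0.35 [-0.40 to 1.11]. The intervals of Ighv3-6, Ighv9-3 and Igkv5-48 that came to include 0 stand beside their ratios above. The light-assigned ratio (-0.05) stayed within its interval. The lambda share ratio (-0.10) was -0.71 in cells with no T cell or neutrophil marker UMI, 0.69 for top genes with at least 2 UMIs and 0.78 as a share of variable UMIs, where plasma-like cells weigh most. The heavy and light overlaps were 0.579 and 0.623 in cells with no such marker, 0.239 and 0.363 with at least 2 UMIs, 0.545 and 0.605 after thinning, 0.592 and 0.544 by UMIs, and 0.826 and 0.811 among members alone. Fewer cells or genes enter these values, except those by UMIs. By UMIs Ighv1-64 turned to -0.45 and Igkv5-48 to -1.41, where 1 control plasma-like cell each held 7 and 10 of their UMIs. Of the other comparisons of single genes, 325 stayed within their counting interval and 14 moved. A gene at 0 in a library gave no ratio. Overlaps were already taken over assigned cells, so that denominator gave no further value. Members competing alone and leaving out plasma-like cells were chosen after seeing the data. No paired analysis was possible because each group has 1 library and the result comes from no test. Depth limits everything here: the median B cell had 3363.5 and 3659 UMIs and most calls rest on 1 UMI.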
